A study of Mus musculus with 13 samples.

Results

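Gene expression was compared between 4T1 tumors left to regrow after cyclophosphamide (CPA) was halted and tumors taken while still on CPA, after 4 cycles. Every one of the 24170 genes with a symbol in the deposited table belongs to this comparison, out of 24197 lines in all. The other 27 lines carry a calendar date in place of a symbol and were left out. 4T1 is a transplantable, poorly differentiated mammary carcinoma line of BALB/c origin, and a widely used mouse model of triple-negative breast cancer. The cells were implanted orthotopically in young female BALB/c mice, whose immune system is intact.

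Regrowth and 4 cycles share the same first part of treatment. Both groups received 4 intraperitoneal injections of CPA at 130 mg/kg (the dose in the labels, from which a library sheet supplied with the study differs), spaced 6 days apart, a metronomic schedule in which a moderate dose is repeated at short intervals. The 4 cycle tumors (3 RNA pools) were then excised at a mouse age of 12 to 13 weeks. Regrowing tumors (2 pools) were left without drug for 18 further days and excised at 14 to 15 weeks. The remaining groups serve here as reference levels, namely PBS vehicle (3 pools, 10 to 11 weeks), 2 cycles (3 pools, the same age) and 7 cycles (2 pools, 14 to 15 weeks). Each pool combined RNA from 2 to 3 tumors.

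The values are FPKM, read fragments scaled to transcript length and to the number of mapped reads, with 1 value per gene and group. No value per pool was used here, so the comparison has no replicate check, no SD and no p-value, and the differences below are differences between group values. Time without drug, mouse age, tumor size and number of pools all differ between regrowth and 4 cycles and cannot be told apart. In bulk tumor RNA, fewer cells of a type and less RNA per cell cannot be told apart either.

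CPA is a prodrug that is activated by liver cytochrome P450 enzymes and alkylates DNA. In treated tumor cells it can turn on type I interferon signaling, in which interferon alpha and beta bind a shared receptor, a complex of transcription factors enters the nucleus, and interferon-stimulated genes (ISG) are transcribed through short promoter elements. Interferon gamma, which is made by NK cells and T cells, acts through a receptor of its own and turns on an overlapping set of genes. Lymphocytes and their bone marrow precursors divide rapidly and are themselves sensitive to CPA. The question addressed was which of the expression differences seen on treatment are still present once the drug is withdrawn and the tumor regrows.

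Most genes past a 2-fold limit were lower in regrowing tumors than in 4 cycle tumors. Interferon, killer lymphocyte, macrophage, neutrophil and adipocyte genes were among those lower, and sterol synthesis genes among those higher. B cell and skeletal muscle genes were higher too, mostly at FPKM values under 1 after 4 cycles. A gene was compared if it reached an FPKM of 1 in one group or the other and was above 0 in both, which held for 11676 genes, and it was counted as different at a ratio of 2 or more. By this rule 547 genes (4.68% of those compared) were lower in regrowth and 130 (1.11%) were higher. With FPKM of at least 1 in both groups, 344 of 10992 genes (3.13%) were lower and 61 (0.555%) higher. These shares over all genes are the background for every list count below. Most genes differed little, and 83.7% of those compared were within 1.5-fold. The median log2 ratio of regrowth over 4 cycles was -0.06, and the middle 90% of genes lay between -0.96 and 0.57 (5th and 95th percentiles, log2). Of the remaining genes, 12492 were under the minimum in both groups and 2 were listed at 0 in 1 of them. These were Glycam1, an endothelial and mammary mucin, and the small nucleolar RNA entry Snord71.

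**Figure D1:**
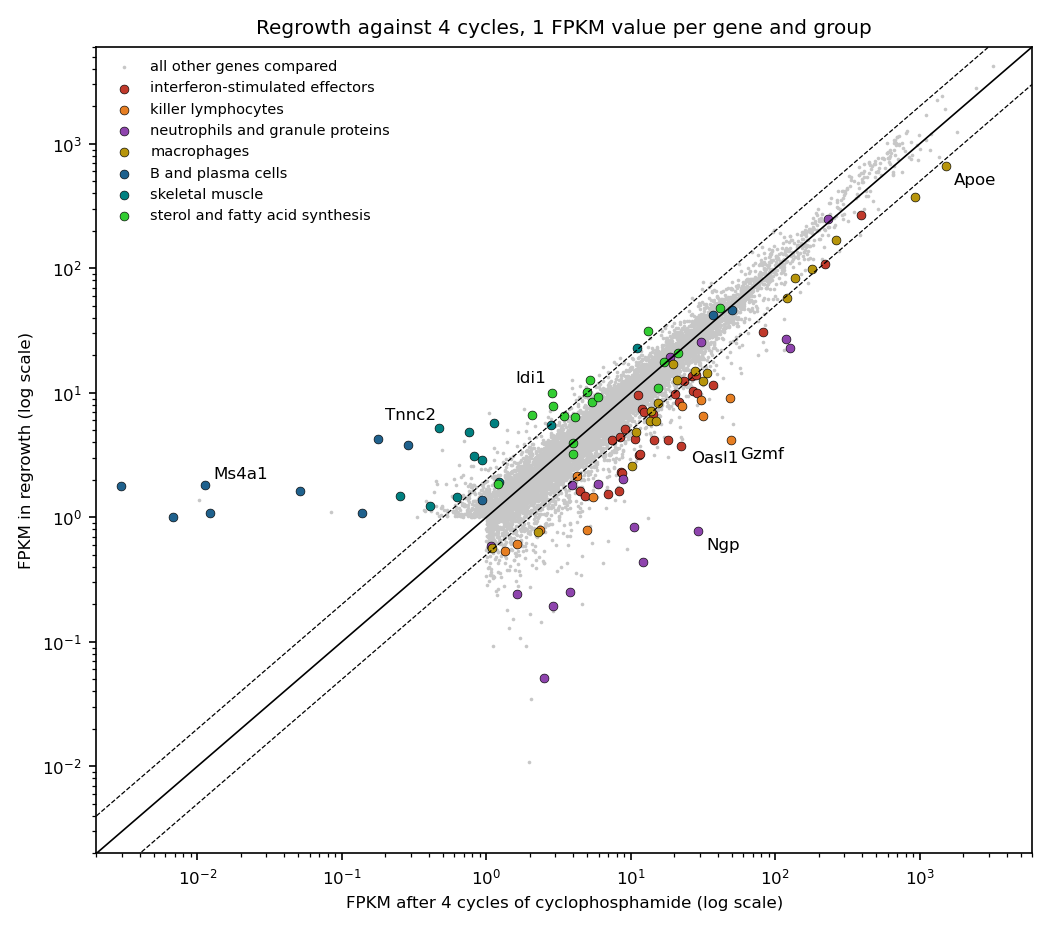
FPKM in regrowth (vertical axis) against FPKM after 4 cycles (horizontal axis), both on log scales, with 1 point per compared gene, 7 gene lists in color, the solid line at equal levels and dashed lines at 2-fold. Interferon, killer lymphocyte and macrophage genes and most neutrophil genes lie below the diagonal, and most B cell, skeletal muscle and sterol synthesis genes above it, with Ms4a1 at 0.0113 against 1.82 and Ngp at 29.2 against 0.770.

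The tumors carried the epithelial profile of 4T1 cells in both groups. The 6 carcinoma markers Epcam, Cdh1, Krt8, Krt18, Krt19 and Krt7 summed to 823 FPKM after 4 cycles and 1063 FPKM in regrowth, with 784 in vehicle tumors. Of the receptor genes that define breast cancer subtypes, Esr1 (estrogen receptor) was at 1.26 and 1.35 FPKM and Erbb2 (Her2) at 6.76 and 7.48, while Pgr (progesterone receptor) was far under the minimum in both groups, at 0.0911 and 0.0554. None of the 7 compared hormone and growth factor receptors differed 2-fold. Markers of several other cell types differed. The summed FPKM of T cell markers was 8.36 after 4 cycles and 8.59 in regrowth, that of macrophage markers 501 and 295, of neutrophil markers 291 and 53.03, and of B cell markers 0.380 and 10.6. Endothelial markers stood at 26.9 and 36.9, fibroblast markers at 318 and 275, skeletal muscle markers at 5.95 and 20.4, adipocyte markers at 63.3 and 49.3, and erythroid markers at 119.9 and 32.2. Most of the adipocyte sum was Fabp4, at 53.6 and 47.1 FPKM. The other adipocyte markers Adipoq, Cidec, Lep and Plin1 were 3.71 to 6.53-fold lower in regrowth, with Lep under the minimum in both groups. The part of such shifts in cell content in the gene differences below was not tested.

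The ISG were lower in regrowth, with no exception among those compared. Interferon acts on such genes through the interferon-stimulated response element of their promoters, which is shown first because the values that follow belong to these genes. The element was searched as GAAANNGAAA on both strands (TTTCNNTTTC on the other) in RefSeq promoter windows of the mouse build GRCm38.p6, from 250 bases before to 50 bases after each gene's start, with overlapping matches allowed. It occurred in 3.99% of the 27025 genes with a window. Among the ISG effectors it was found in 12 of 22 with a window, among sensors and interferon regulators in 4 of 15, and among interferon gamma responsive genes in 10 of 14. It was found in 2 of 16 killer lymphocyte genes, in 1 of 9 B cell genes, and in none of the windows of 17 neutrophil genes or of 11 sterol synthesis genes. A set of ISG promoters is printed in the direction of transcription with the matches in capitals.

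Rsad2, GRCm38.p6 chr12:26456403-26456702, minus strand: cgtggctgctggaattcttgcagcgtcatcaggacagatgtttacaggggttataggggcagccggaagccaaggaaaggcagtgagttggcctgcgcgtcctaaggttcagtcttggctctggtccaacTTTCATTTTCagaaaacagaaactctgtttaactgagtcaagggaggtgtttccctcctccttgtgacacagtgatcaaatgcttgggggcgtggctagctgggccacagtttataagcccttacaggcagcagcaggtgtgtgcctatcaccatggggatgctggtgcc
Ifit3, GRCm38.p6 chr19:34583279-34583578, plus strand: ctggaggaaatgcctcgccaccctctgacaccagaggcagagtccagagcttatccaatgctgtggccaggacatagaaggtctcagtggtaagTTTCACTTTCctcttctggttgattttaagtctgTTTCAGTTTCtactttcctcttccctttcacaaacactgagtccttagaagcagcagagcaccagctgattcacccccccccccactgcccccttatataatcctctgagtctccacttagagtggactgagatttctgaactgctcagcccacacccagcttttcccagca
Ifit1, GRCm38.p6 chr19:34640639-34640938, plus strand: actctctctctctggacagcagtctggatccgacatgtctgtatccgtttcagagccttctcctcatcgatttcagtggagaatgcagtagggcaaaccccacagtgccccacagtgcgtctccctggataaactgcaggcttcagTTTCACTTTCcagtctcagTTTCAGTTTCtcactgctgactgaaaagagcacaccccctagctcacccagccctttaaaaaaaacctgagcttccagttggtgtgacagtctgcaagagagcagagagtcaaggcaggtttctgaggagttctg
Isg15, GRCm38.p6 chr4:156200769-156201068, minus strand: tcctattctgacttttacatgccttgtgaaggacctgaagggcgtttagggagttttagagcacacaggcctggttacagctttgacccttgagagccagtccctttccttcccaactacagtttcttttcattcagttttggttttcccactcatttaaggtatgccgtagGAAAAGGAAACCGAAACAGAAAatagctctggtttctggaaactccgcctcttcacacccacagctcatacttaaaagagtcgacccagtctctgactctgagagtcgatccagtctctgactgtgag

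In Isg15 the 3 matches overlap and form a single run, while Ifit3 and Ifit1 each have 2 separate matches and Rsad2 has 1. A match is a description of the letters and not evidence of a bound site. The ISG effectors with a match had a median log2 ratio of -1.38 (12 genes) and those without one -1.15 (10 genes). For sensors and interferon regulators the medians were -1.13 (4 genes) and -0.42 (11 genes). For interferon gamma responsive genes they were -1.18 (10 genes) and -0.31 (3 genes). Killer lymphocyte genes went the other way, at -1.43 (1 gene) and -2.09 (8 genes). The part of the element in these differences was not tested.

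Of 31 ISG effectors found, 30 were compared, and all of these had a ratio under 1. Of these, 21 were lower by 2-fold or more, none was higher, and the median log2 ratio was -1.38, against -0.06 over all genes compared and a background of 4.68%. Oasl1, an oligoadenylate synthetase-like protein (chromosome 5, 115373248 to 115387920, mm9), stood at 2.72 FPKM in vehicle, 15.7 after 2 cycles, 22.3 after 4 cycles, 16.3 after 7 cycles and 3.72 in regrowth. It was high in the groups on treatment and nearest to vehicle in regrowth, 6.00-fold lower than after 4 cycles. Rsad2 (viperin, an antiviral enzyme, chromosome 12, 27127607 to 27141317, mm9) had 8.33 FPKM after 4 cycles and 1.62 in regrowth, with 0.998 in vehicle. Mx1, a GTPase that blocks virus replication, had 6.99 and 1.55 FPKM, with 1.40 in vehicle. Ifit3, an RNA-binding antiviral protein whose gene lies beside Ifit1, had 18.0 and 4.18 FPKM, with 2.85 in vehicle. The difference between 4 cycles and regrowth ran from 4.30-fold for Ifit3 to 6.00-fold for Oasl1, and each of these genes was still above its vehicle level.

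The ubiquitin-like modifier Isg15 was the most abundant of the genes whose promoters are printed. It stood at 16.5 FPKM in vehicle, 82.1 after 4 cycles, 84.9 after 7 cycles and 31.0 in regrowth, a 2.65-fold difference between 4 cycles and regrowth that left it above vehicle. Usp18, the protease that removes Isg15 from proteins, had 20.4 and 9.74 FPKM, with 4.12 in vehicle. The membrane protein genes Bst2 (tetherin, 220.0 and 108 FPKM) and Ifitm3 (a block to virus entry, 391 and 268 FPKM) differed by 2.03 and 1.46-fold. Isg20, an exonuclease, was nearly level at 11.2 and 9.60 FPKM. Against vehicle, the list median was 1.62 (log2) after 4 cycles and 0.44 in regrowth, comparisons that share the vehicle group. In regrowth 24 of the 30 genes were above vehicle. The near-identical Oas, Ifit and Slfn copies can share reads, so the values of single paralogs are uncertain.

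Sensors of foreign nucleic acid and the regulators of interferon signaling were lower to a smaller degree. Of 20 compared, 9 were 2-fold or more lower and none was higher, with a median log2 ratio of -0.90. Irf7, the transcription factor that amplifies type I interferon production, had 13.4 FPKM in vehicle, 76.0 after 4 cycles, 67.3 after 7 cycles and 20.3 in regrowth. Stat2, a signal transducer of the type I receptor, had 19.1 FPKM after 4 cycles and 7.87 in regrowth. It was then slightly below its vehicle level of 9.23. The cytosolic RNA sensors Ddx58 (RIG-I) and Ifih1 (MDA5) were 2.17 and 2.21-fold lower, and the endosomal sensors Tlr7 and Tlr9 2.36 and 2.82-fold lower at FPKM values under 2. Constitutive parts of the pathway differed little. Irf3 stood at 13.0 and 14.4 FPKM, the adaptor Tmem173 (STING) at 15.2 and 14.6, and the receptor chain Ifnar1 at 6.18 and 5.33.

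Genes that respond to interferon gamma followed the same direction. Of 19 compared, 15 were 2-fold or more lower in regrowth, none was higher, and the median log2 ratio was -1.19. The chemokines Cxcl9, Cxcl10 and Cxcl11, which attract activated T cells through the receptor Cxcr3, stood at 10.5, 17.1 and 8.14 FPKM after 4 cycles and at 3.56, 4.44 and 1.74 in regrowth. Each was slightly below its vehicle level (4.34, 4.77 and 1.81 FPKM). Ido1, an enzyme that breaks down tryptophan, had 1.17 and 0.256 FPKM. Among the guanylate-binding proteins Gbp2, Gbp3, Gbp4, Gbp5, Gbp6 and Gbp7, which attack intracellular pathogens, differences ran from 2.12-fold for Gbp7 to 3.41-fold for Gbp6. Gbp genes are close paralogs and may share reads. The receptor genes Ifngr1 and Ifngr2 were nearly level (20.0 and 16.1 FPKM, and 18.5 and 17.6 FPKM). Ifng itself was under the minimum in both groups, at 0.473 and 0.109 FPKM. The list median against vehicle was 1.20 after 4 cycles and -0.09 in regrowth.

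MHC class I presentation genes, many of which are interferon responsive, were nearly level between 4 cycles and regrowth. None of the 16 MHC class I presentation genes differed 2-fold, and the median log2 ratio was -0.19. B2m, the light chain of class I molecules, stood at 557 FPKM in vehicle, 873 after 4 cycles and 758 in regrowth. The immunoproteasome subunit Psmb9 had 34.3, 76.1 and 75.5 FPKM in the same order, and Psmb8 had 113, 222 and 203. Both thus stood in regrowth close to their level on treatment. Tap1, a peptide transporter, was lower in regrowth (42.9 and 27.5 FPKM) and nearer to its vehicle value of 23.3. Against vehicle, the class I median was 0.70 after 4 cycles and 0.54 in regrowth. In the MHC class II list 7 of 8 genes were lower, none by 2-fold (median log2 ratio -0.37), including the invariant chain Cd74 at 479 and 347 FPKM. The exception was H2-Oa, a class II chaperone subunit best known from B cells, at 0.491 and 1.22 FPKM, which passed the minimum only in regrowth. Class I genes such as H2-D1, H2-K1 and the H2-Q genes are near-identical copies, and their single values are uncertain.

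Transcripts of killer lymphocytes were lower in regrowth. Of 18 killer cell genes found, 11 were compared, and of these 10 were 2-fold or more lower and none was higher, with a median log2 ratio of -1.79. With FPKM of at least 1 in both groups the count was 6 of 7, beside a background of 3.13%. Perforin (Prf1), which forms pores in target cells, had 1.53 FPKM in vehicle, 10.5 after 2 cycles, 4.97 after 4 cycles, 0.990 after 7 cycles and 0.796 in regrowth. Granzyme B (Gzmb), a protease delivered through those pores, had 1.83, 9.48, 5.44, 1.36 and 1.45 FPKM in the same order. Both were highest after 2 cycles, already lower by 4 cycles, and at or below vehicle after 7 cycles and in regrowth. The granzymes of the chromosome 14 cluster reached higher levels. Gzmf (chromosome 14, 56824099 to 56830244, mm9) had 7.53, 72.8, 49.8, 4.81 and 4.19 FPKM. It was 11.9-fold lower in regrowth than after 4 cycles, followed by its neighbors Gzmg at 9.02-fold, Gzmd at 5.32-fold, Gzmc at 4.85-fold and Gzme at 2.93-fold. These paralogs are near-identical and may share reads. NK receptor genes Klrd1 (2.35 and 0.798 FPKM) and Klrk1 (1.35 and 0.535 FPKM) passed the minimum only after 4 cycles, and Ncr1 did not pass it (0.542 and 0.179 FPKM). The chemokine Ccl5 stood at 30.4 and 8.80 FPKM, with 4.92 in vehicle. Unlike the granzymes it was still at 24.1 FPKM after 7 cycles.

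Among 9 T cell genes 1 was 2-fold higher, none was lower, and the median log2 ratio was 0.04. Cd3e had 1.18 FPKM after 4 cycles and 0.996 in regrowth, Cd3g 2.53 and 2.39, and Cd3d 1.03 and 1.77, all parts of the T cell receptor complex. Cd8a was at 1.88 and 1.13 FPKM, and its partner Cd8b1 at 1.34 and 1.37. The gene past the limit was Lat, an adaptor of receptor signaling, at 1.14 and 3.58 FPKM, which was also above its vehicle level of 1.48. These values are low and close to the minimum. In the list of regulatory T cell and checkpoint genes 4 of 7 were 2-fold or more lower, with a median log2 ratio of -1.19. Pdcd1 (PD-1, an inhibitory receptor of exhausted and activated T cells) had 2.09 and 0.414 FPKM, and its ligand gene Cd274 (PD-L1) had 8.27 and 3.62. The inhibitory receptor genes Tigit and Havcr2 were 3.56 and 2.78-fold lower. Foxp3, the defining factor of regulatory T cells, was under the minimum in both groups and 2-fold or more higher in regrowth. With no minimum, 5 of the 12 genes of this list were 2-fold or more lower and 1 was higher.

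B cell transcripts were near 0 after 4 cycles and detected at low levels in regrowth. Of 15 genes of B and plasma cells found, 11 were compared and 8 were 2-fold or more higher in regrowth and none was lower, beside a background of 1.11%. All 8 reached an FPKM of 1 only in regrowth, so each had to differ to be compared, and no reading is drawn from the list's count or its median log2 ratio of 4.58. Ms4a1 (CD20, a surface protein of mature B cells, chromosome 19, 11325092 to 11340641, mm9) stood at 0.793 FPKM in vehicle, 0.145 after 2 cycles, 0.0113 after 4 cycles, 0.00576 after 7 cycles and 1.82 in regrowth. The antigen receptor subunits Cd79a and Cd79b had 0.177 and 0.289 FPKM after 4 cycles and 4.24 and 3.82 in regrowth. In each of these genes the order was the same, with 4 and 7 cycles lowest, 2 cycles between them and vehicle, and regrowth above vehicle. The antibody joining chain Igj had 1.34 FPKM in vehicle, 0.0514 after 4 cycles and 1.63 in regrowth. Mzb1, a chaperone of antibody secretion, had 0.622, 0.137 and 1.09 FPKM. The B lineage transcription factors Pax5 and Pou2af1 had 0.00673 and 0.0123 FPKM after 4 cycles and 1.01 and 1.09 in regrowth.

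The highest of these levels was 4.24 FPKM (Cd79a), so the ratios rest on FPKM values close to 0 in the 4 cycle group and their size is poorly known. Adding 1 to both values brought the log2 ratio of Ms4a1 from 7.33 to 1.48 and that of Cd79a from 4.58 to 2.16. The genes Xbp1 (49.9 and 46.2 FPKM) and Sdc1 (36.9 and 41.9 FPKM) were level and abundant. Both are known in plasma cells but also expressed by epithelium. Cd22, an inhibitory receptor of B cells, was under the minimum in both groups, at 0.969 and 0.814 FPKM.

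**Figure D2:**
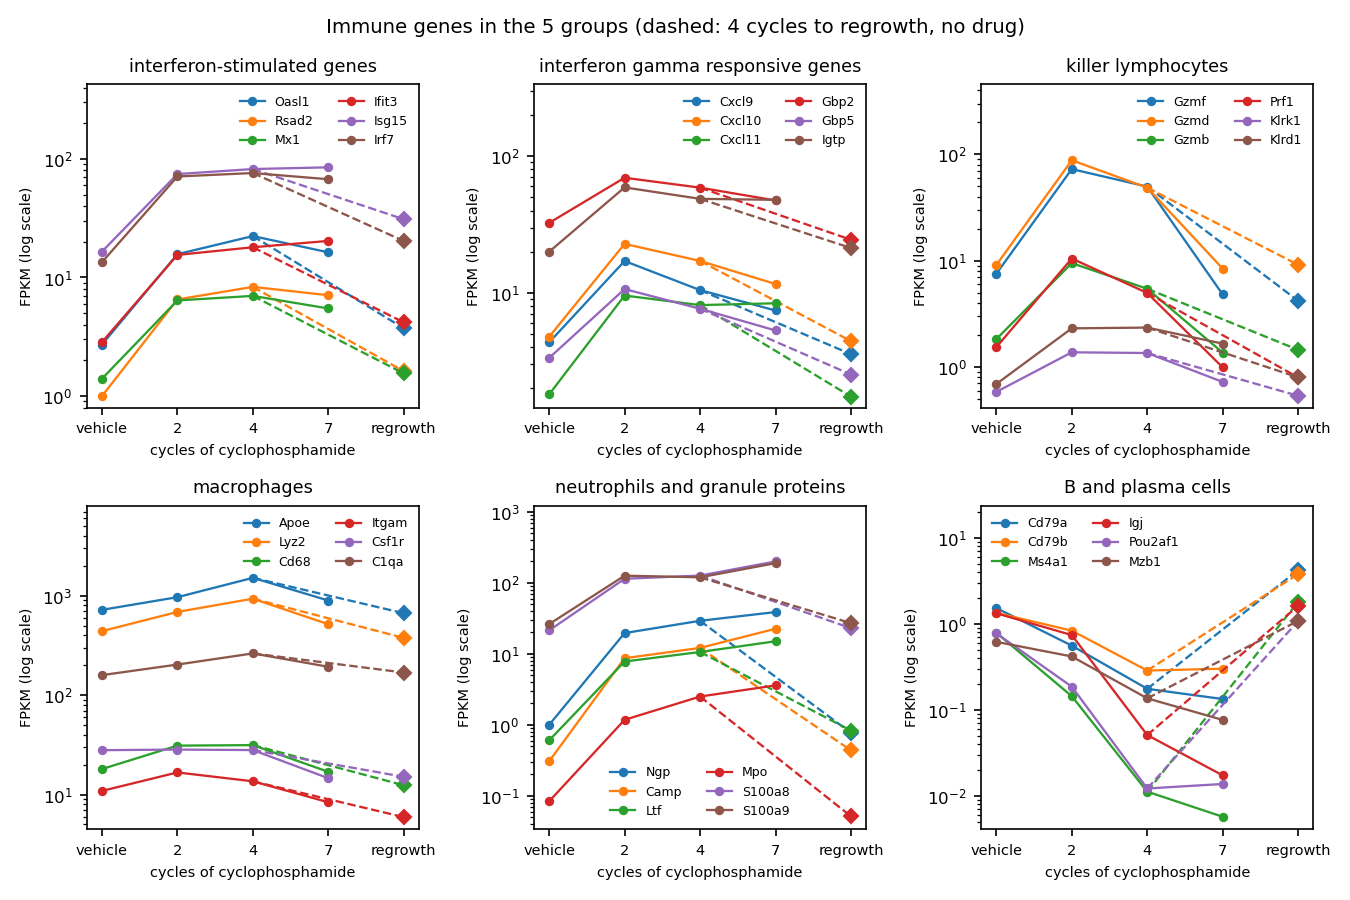
FPKM (log scale) of 36 immune genes in vehicle tumors, after 2, 4 and 7 cycles of CPA and in regrowth, with 1 group value per point, solid lines along the treatment course and dashed lines from 4 cycles to regrowth (diamonds). Regrowth lies below 4 cycles in the panels for interferon, killer lymphocyte, macrophage and neutrophil genes (Oasl1 22.3 to 3.72) and above it in the B cell panel (Cd79a 0.177 to 4.24).

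Macrophage genes were lower in regrowth, and most were also below their level in untreated tumors. All 19 compared genes had a ratio under 1, 10 of them by 2-fold or more, with a median log2 ratio of -1.06. Apoe, a lipid carrier that is abundant in tumor macrophages, stood at 720.2 FPKM in vehicle, 1512 after 4 cycles, 894 after 7 cycles and 666 in regrowth. It had the largest absolute difference of any gene toward lower levels, 846 FPKM. Lyz2 (lysozyme) differed by 557 FPKM. Cd68, a lysosomal membrane protein of macrophages, had 18.1, 31.4, 16.9 and 12.4 FPKM. Csf1r, the receptor for the main macrophage growth factor, had 27.9, 28.0, 14.6 and 15.1 FPKM in the same order, thus as low after 7 cycles as in regrowth. Its ligand gene Csf1 had 22.3 FPKM after 4 cycles and 11.6 in regrowth. The integrin Itgam was at 13.6 and 5.93 FPKM and Arg1 (arginase, a marker of immunosuppressive macrophages) at 119.9 and 57.5. Ly6c2, a marker of inflammatory monocytes with near-identical neighbors, was 3.96-fold lower. Cd14, the lipopolysaccharide co-receptor, was the least different at 19.6 and 17.0 FPKM. Against vehicle, the list median was 0.68 after 4 cycles, -0.13 after 7 cycles and -0.51 in regrowth, and 16 of 19 genes were below vehicle in regrowth. The median log2 ratio of regrowth over 7 cycles, groups that share a mouse age, was -0.37.

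Granule protein genes of neutrophils and their precursors were lower in regrowth, with a list median of -2.30 (log2). Of 18 found, 16 were compared and 12 were 2-fold or more lower and none was higher, but 8 had an FPKM of 1 in both groups, and among these 5 were lower with a median of -1.40. Ngp, neutrophilic granule protein (chromosome 9, 110322311 to 110325516, mm9), stood at 0.998 FPKM in vehicle, 19.6 after 2 cycles, 29.2 after 4 cycles, 38.7 after 7 cycles and 0.770 in regrowth. Camp, the cathelicidin antimicrobial peptide, had 0.306, 8.68, 12.1, 22.5 and 0.438 FPKM, and Ltf (lactoferrin) 0.604, 7.79, 10.6, 15.0 and 0.830. In all 3 genes the level was higher at each later time on treatment and back near vehicle in regrowth. Primary granule enzymes, which are made by marrow precursors, were lower as well, with Mpo at 2.50 and 0.0515 FPKM and Elane at 2.92 and 0.194. Chil3, a chitinase-like protein of neutrophil precursors and macrophages that the list held under an older symbol and so did not count, had 2.89 and 0.178 FPKM. The calprotectin subunits S100a8 and S100a9 had 127 and 119.6 FPKM after 4 cycles and 22.97 and 27.0 in regrowth, close to their vehicle levels of 21.4 and 26.2. Not past the limit were the chemokine receptor Cxcr2 (1.08 and 0.592 FPKM) and Lcn2, Il1b and Mmp9, which other cells of the tumor also express, at 231 and 251, 18.7 and 19.5, and 30.7 and 25.4 FPKM. Among factors that recruit myeloid cells 2 of 13 were 2-fold lower (median log2 ratio -0.65), namely the monocyte chemokine Ccl7 (23.2 and 11.0 FPKM) and the cytokine Il1a (2.85 and 1.40 FPKM). The neutrophil attractants Cxcl1 and Cxcl5 were on the higher side in regrowth, at 8.08 and 10.5 FPKM and 2.13 and 2.88 FPKM, and below the 2-fold limit.

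Of 5 compared dendritic cell genes 2 were 2-fold lower, the integrin Itgax (8.02 and 3.61 FPKM) and the lectin Clec10a (2.98 and 1.34 FPKM). The migration receptor Ccr7 was level at 1.82 and 1.80 FPKM. Of 5 mast cell and eosinophil genes the proteases Cma1 and Mcpt4 were 2-fold lower, and both passed the minimum only after 4 cycles. Of the panel of genes that the study itself had followed by PCR, 11 were compared. All 11 had a ratio under 1 and 10 were 2-fold or more lower (median log2 ratio -1.95). With no minimum, 12 of 14 were 2-fold or more lower, and 1, Foxp3, was 2-fold or more higher. The study used these genes as interferon and immune cell markers across its cultured cells and tumors, so the panel is no independent evidence of direction.

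**Figure D3:**
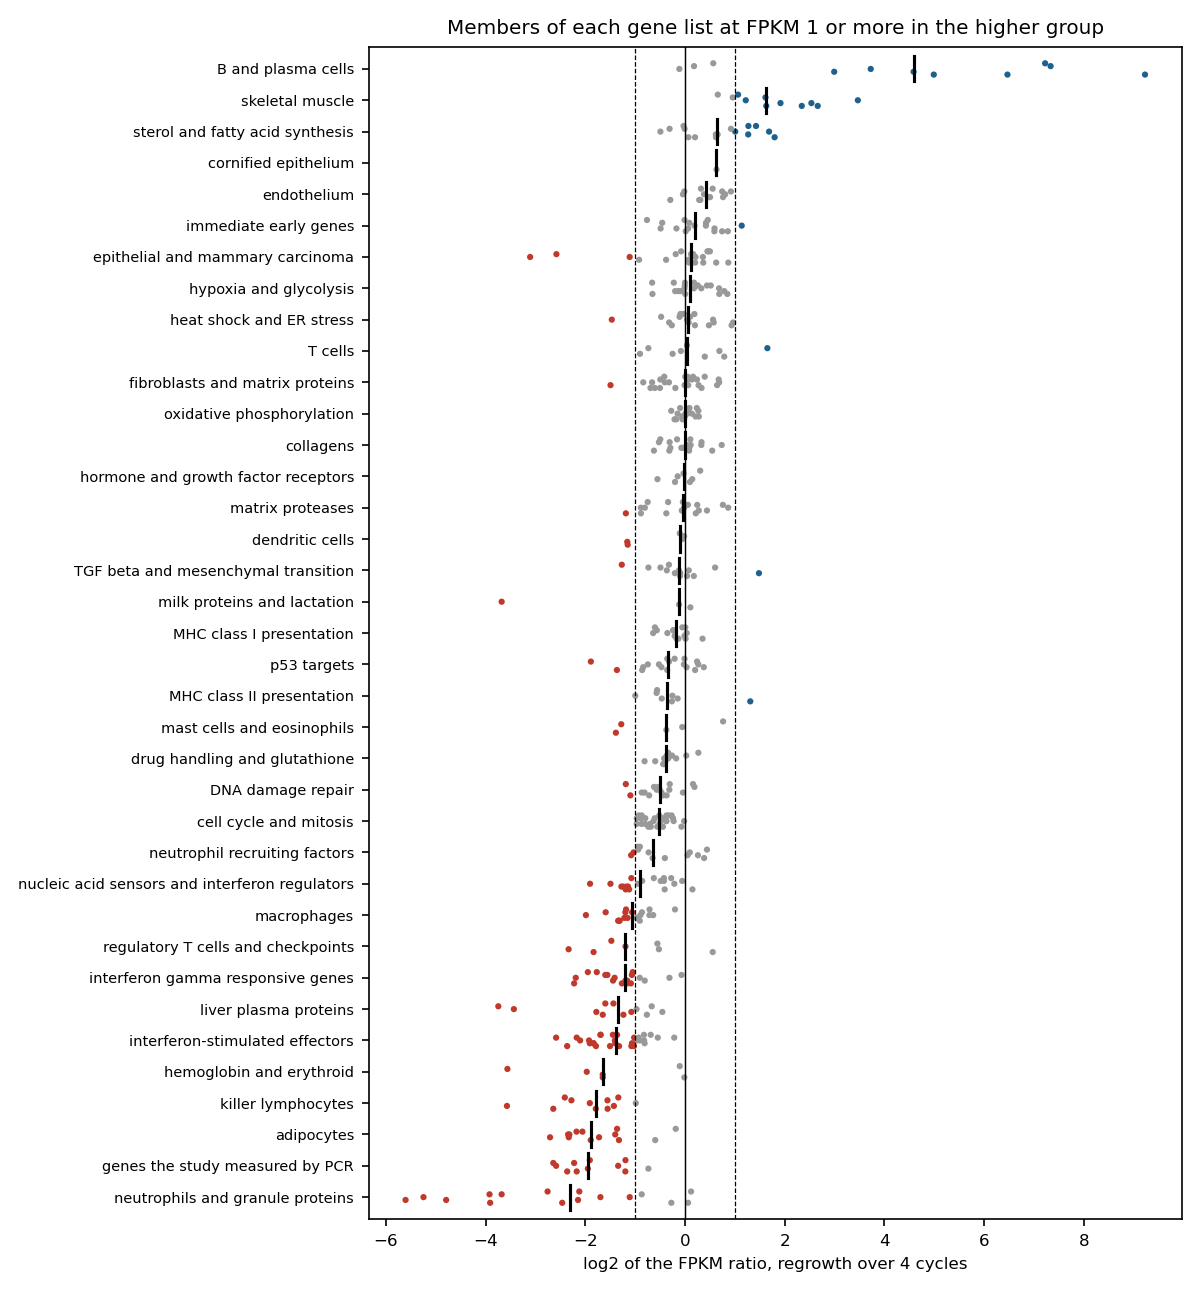
Log2 ratio of regrowth over 4 cycles (horizontal axis) for the members of 37 gene lists that reached an FPKM of 1 in either group, 1 point per gene, with black bars at list medians and dashed lines at 2-fold. Blue points are 2-fold or more higher and red points 2-fold or more lower in regrowth. The B cell list, at the top, holds mostly genes that were compared only through their level in regrowth, and its position carries no reading.

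Cell cycle genes were on the lower side in regrowth, each by less than 2-fold. All 30 compared genes had a ratio under 1, none passed the limit, and the median log2 ratio was -0.51. Plk1, a mitotic kinase, stood at 11.6 FPKM in vehicle, 16.1 after 4 cycles and 8.22 in regrowth. Aurka had 8.36, 15.1 and 7.95 FPKM, and cyclin B1 (Ccnb1) 15.7, 20.3 and 11.0. The proliferation marker Mki67 had 13.8, 12.2 and 8.98 FPKM. For each of these genes the regrowth value was also below vehicle, as it was in 26 of the 30. Cdk1 (19.8 and 19.6 FPKM) and Pcna (77.1 and 73.3 FPKM) were level. The list median against vehicle was 0.27 after 4 cycles and -0.30 in regrowth.

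Among p53 targets 2 of 18 were 2-fold lower and the median log2 ratio was -0.34. Cdkn1a (p21, a cyclin-dependent kinase inhibitor) had 9.78 FPKM in vehicle, 24.6 after 2 cycles, 24.1 after 4 cycles, 18.5 after 7 cycles and 9.36 in regrowth. Sesn2, a stress-induced regulator of growth signaling, had 2.18 and 0.589 FPKM. Other classical targets were close to level, with Mdm2 at 12.1 and 12.4 FPKM and Bax at 49.9 and 40.0. Of 17 DNA repair genes 2 were 2-fold lower (median log2 ratio -0.51). These were Fanca, part of the crosslink repair complex, at 2.85 and 1.25 FPKM, and Mgmt, which removes alkyl groups from guanine, at 1.81 and 0.846 FPKM. None of 14 drug handling and glutathione genes passed the limit (median log2 ratio -0.38), and the glutathione transferase Gstm1 was the farthest from level at 4.55 and 2.59 FPKM.

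Sterol synthesis genes were higher in regrowth, at or near their level in vehicle tumors. Of 17 compared genes of sterol and fatty acid synthesis 6 were 2-fold or more higher and none was lower, beside a background of 1.11%, and all 17 had an FPKM of at least 1 in both groups. The median log2 ratio was 0.65. Idi1, an isomerase early in the isoprenoid pathway (chromosome 13, 8884851 to 8891642, mm9), stood at 9.53 FPKM in vehicle, 2.55 after 2 cycles, 2.87 after 4 cycles, 6.66 after 7 cycles and 9.98 in regrowth. The lanosterol demethylase Cyp51 had 6.87, 1.98, 2.06, 4.70 and 6.62 FPKM in the same order. In both genes the 2 and 4 cycle groups were lowest, with 7 cycles between these and vehicle. The farnesyl diphosphate synthase Fdps had 13.1 and 31.6 FPKM, the epoxidase Sqle 5.01 and 10.1, and Insig1, which retains the regulator of the pathway in the endoplasmic reticulum, 5.24 and 12.6. Srebf2, the transcription factor that regulates the pathway, was on the higher side and below the limit (5.89 and 9.24 FPKM). Genes of fatty acid synthesis did not share this, with Fasn at 15.4 and 10.9 FPKM and Acaca at 3.97 and 3.21. Hmgcs1, a synthase early in the pathway, is listed at 0 in all 5 groups and gives no value.

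Other metabolic and stress lists were near level. None of 18 oxidative phosphorylation genes differed 2-fold (median log2 ratio 0.0014). None of 20 hypoxia and glycolysis genes did (median log2 ratio 0.09), with Car9, the carbonic anhydrase of hypoxic cells, farthest on the higher side at 16.2 and 29.2 FPKM, near its vehicle level of 32.7. Of 18 heat shock and ER stress genes only Chac1, a glutathione-degrading enzyme of the stress response, was 2-fold lower (1.60 and 0.578 FPKM), and the median log2 ratio was 0.06. Of 17 immediate early genes, Egr3 was 2-fold higher (0.687 and 1.51 FPKM), Egr1 stood at 4.30 and 7.79 FPKM, and the median was 0.19.

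Collagen genes stood in regrowth at the reduced levels found on treatment. None of 18 compared collagens differed 2-fold between regrowth and 4 cycles, 9 were on the higher and 9 on the lower side, and the median log2 ratio was -0.0013. Col1a1, the main chain of type I collagen, stood at 380.2 FPKM in vehicle, 241 after 2 cycles, 155 after 4 cycles, 76.5 after 7 cycles and 125 in regrowth. Col3a1 had 285, 158, 114, 87.1 and 117 FPKM. Both were thus well under vehicle in regrowth, between the 4 and 7 cycle values for Col1a1 and just above 4 cycles for Col3a1. The list median against vehicle was -0.91 after 4 cycles, -1.54 after 7 cycles and -1.06 in regrowth, with 18 of 18 genes below vehicle. In the list of fibroblast and matrix proteins 1 of 25 was 2-fold lower, the matrix protein Fbln1 (2.71 and 0.963 FPKM), and the median log2 ratio was 0.0047 (against vehicle -0.73 after 4 cycles and -0.78 in regrowth). Acta2, the smooth muscle actin of activated fibroblasts, had 21.9 FPKM in vehicle, 10.8 after 4 cycles and 12.7 in regrowth, and Tnc (tenascin C) 61.5, 20.0 and 32.0. Of 18 matrix proteases and inhibitors only Timp3, an inhibitor of metalloproteases, was 2-fold lower (7.21 and 3.17 FPKM), with a list median of -0.05. The counts of the fibroblast and protease lists were near the background of 4.68%. In the list of TGF beta signaling and mesenchymal transition, of 14 genes the transcription factor Twist2 was higher (1.20 and 3.34 FPKM, vehicle 5.73) and the TGF beta-induced matrix protein Tgfbi lower (56.5 and 23.4 FPKM, vehicle 36.5), and the median was -0.11.

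Endothelial genes were on the higher side without passing the limit. Of 14 compared 11 had a ratio over 1, none by 2-fold, and the median log2 ratio was 0.43. Cdh5 (VE-cadherin, the junction protein of endothelium) stood at 9.70 FPKM in vehicle, 6.41 after 4 cycles, 4.68 after 7 cycles and 8.93 in regrowth. Emcn, a surface mucin of veins and capillaries, had 6.43, 4.60, 5.14 and 8.71 FPKM. Kdr, the main VEGF receptor, was level at 1.88 and 1.83 FPKM. Against vehicle the list median was -0.36 after 4 cycles and 0.05 in regrowth.

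Luminal and pan-epithelial genes were mostly level or on the higher side, with Epcam (an adhesion molecule of carcinoma cells) at 72.6 FPKM in vehicle, 81.1 after 4 cycles, 129 after 7 cycles and 148 in regrowth. The keratins Krt8 and Krt18 had 295 and 303 FPKM after 4 cycles and 331 and 421 in regrowth. The mucin Muc1 was an exception at 1.71 and 0.904 FPKM. The members past the limit were 3 genes known in basal epithelium, Krt5, Krt17 and Trp63, all lower. Krt5 had 0.350, 5.39, 10.8 and 0.626 FPKM in vehicle, after 4 and 7 cycles and in regrowth, and Krt17 had 1.05, 18.2, 31.9 and 3.04. Trp63, a transcription factor of basal epithelium, was 2.16-fold lower at 1.11 and 0.513 FPKM. Krt5 and Trp63 passed the minimum only after 4 cycles, so that 3 of 21 compared genes were lower, and 1 of 18 with the minimum in both groups. The list median was 0.12. Krt14, the usual partner of Krt5, was less different at 44.1 and 33.9 FPKM. Basal keratins are also made in skin. The skin differentiation genes Krt1 and Lor were under the minimum after 4 cycles and in regrowth (0.0336 and 0.00489 FPKM for Krt1, 0.00457 and 0.0806 FPKM for Lor). After 2 and 7 cycles they were higher, at 11.9 and 3.80 FPKM for Krt1 and 6.01 and 1.28 FPKM for Lor. Krt5 and Krt17 had 6.99 and 7.01 FPKM after 2 cycles. The part of skin in the keratin values was not tested. The cornified epithelium list had 1 compared gene, Krt10 (0.816 and 1.25 FPKM, log2 ratio 0.62). Of 3 compared genes of milk and lactation, Ltf was lower as given above and the casein Csn3 stood at 3.97 and 4.28 FPKM (list median -0.12). Glycam1 was listed at 0 after 4 cycles and at 15.5 FPKM in regrowth, with 7.66 in vehicle and 0.0371 after 7 cycles.

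**Figure D4:**
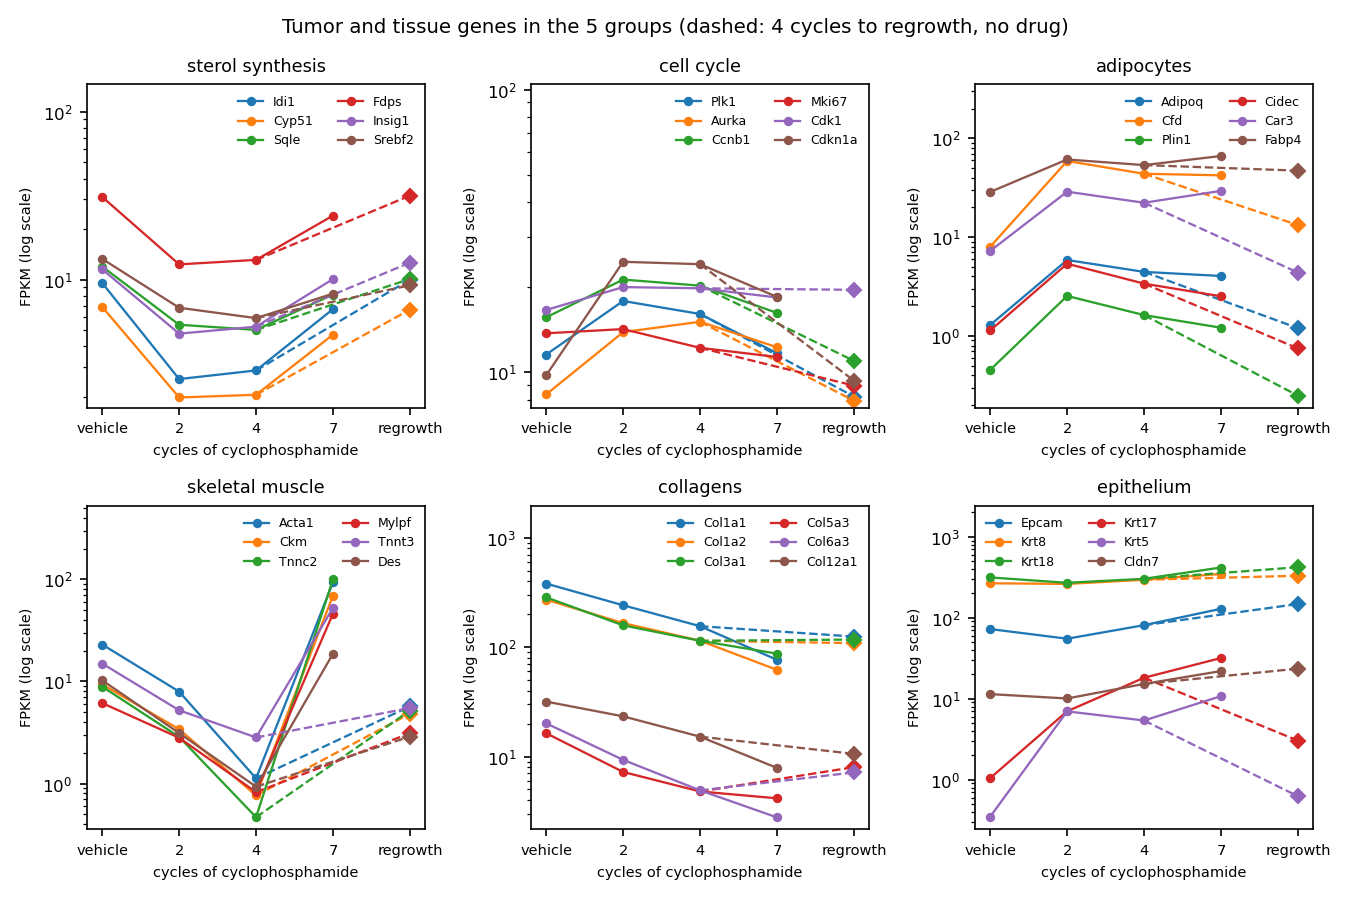
FPKM (log scale) of 36 tumor and tissue genes in vehicle tumors, after 2, 4 and 7 cycles and in regrowth, drawn as in the immune panels. Sterol synthesis genes are higher in regrowth than after 4 cycles (Idi1 2.87 to 9.98), Col1a1 is low in both (155 to 125), the adipocyte genes and Krt5 and Krt17 are lower, and the skeletal muscle genes peak after 7 cycles.

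Genes typical of skeletal muscle, fat, red blood cells and liver differed in both directions. Of 11 compared skeletal muscle genes 9 were 2-fold or more higher in regrowth and none was lower (median log2 ratio 1.63), but 4 reached the minimum in both groups, and of these 2 were higher. Acta1, skeletal muscle actin, stood at 22.98 FPKM in vehicle, 7.95 after 2 cycles, 1.12 after 4 cycles, 93.6 after 7 cycles and 5.70 in regrowth. Ckm (muscle creatine kinase) and Tnnc2 (fast troponin C) had 0.765 and 0.469 FPKM after 4 cycles and 4.84 and 5.18 in regrowth. The 4 cycle group was thus the lowest of the 5, and regrowth remained below vehicle. Summed muscle markers ran from 5.95 to 297 FPKM over the 5 groups. Adipocyte genes were lower, with 11 of 13 past the limit (background 4.68%) and a median of -1.89. Where both groups reached the minimum, 5 of 7 were 2-fold or more lower (background 3.13%). The secreted adipocyte proteins Adipoq (adiponectin) and Cfd (adipsin) had 4.45 and 43.8 FPKM after 4 cycles and 1.20 and 13.3 in regrowth, and the lipid droplet protein Plin1 1.63 and 0.249. Hemoglobin and erythroid genes were 2-fold or more lower in 4 of 6 cases (median log2 ratio -1.65), with Hbb-b1 at 87.0 and 22.2 FPKM and the near-identical pair Hba-a1 and Hba-a2 each 3.14-fold lower. Of 12 genes of liver plasma proteins 8 were 2-fold or more lower (median log2 ratio -1.34), but 6 reached the minimum in both groups, and of these 2 were lower (median -0.87), beside the background of 3.13%. Albumin (Alb) had 2.06 FPKM in vehicle, 1.70 after 2 cycles, 33.2 after 4 cycles, 4.73 after 7 cycles and 14.1 in regrowth. Albumin transcripts are made by hepatocytes, and they were highest in the 4 cycle group. The major urinary proteins Mup3 (13.2 and 0.986 FPKM) and Mup20 (6.97 and 0.646 FPKM), also of liver, were under 1 FPKM in the vehicle, 2 cycle and 7 cycle groups. The part of surrounding tissue or single tumors in these values was not tested, since values per pool were not used.

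**Figure D5:**
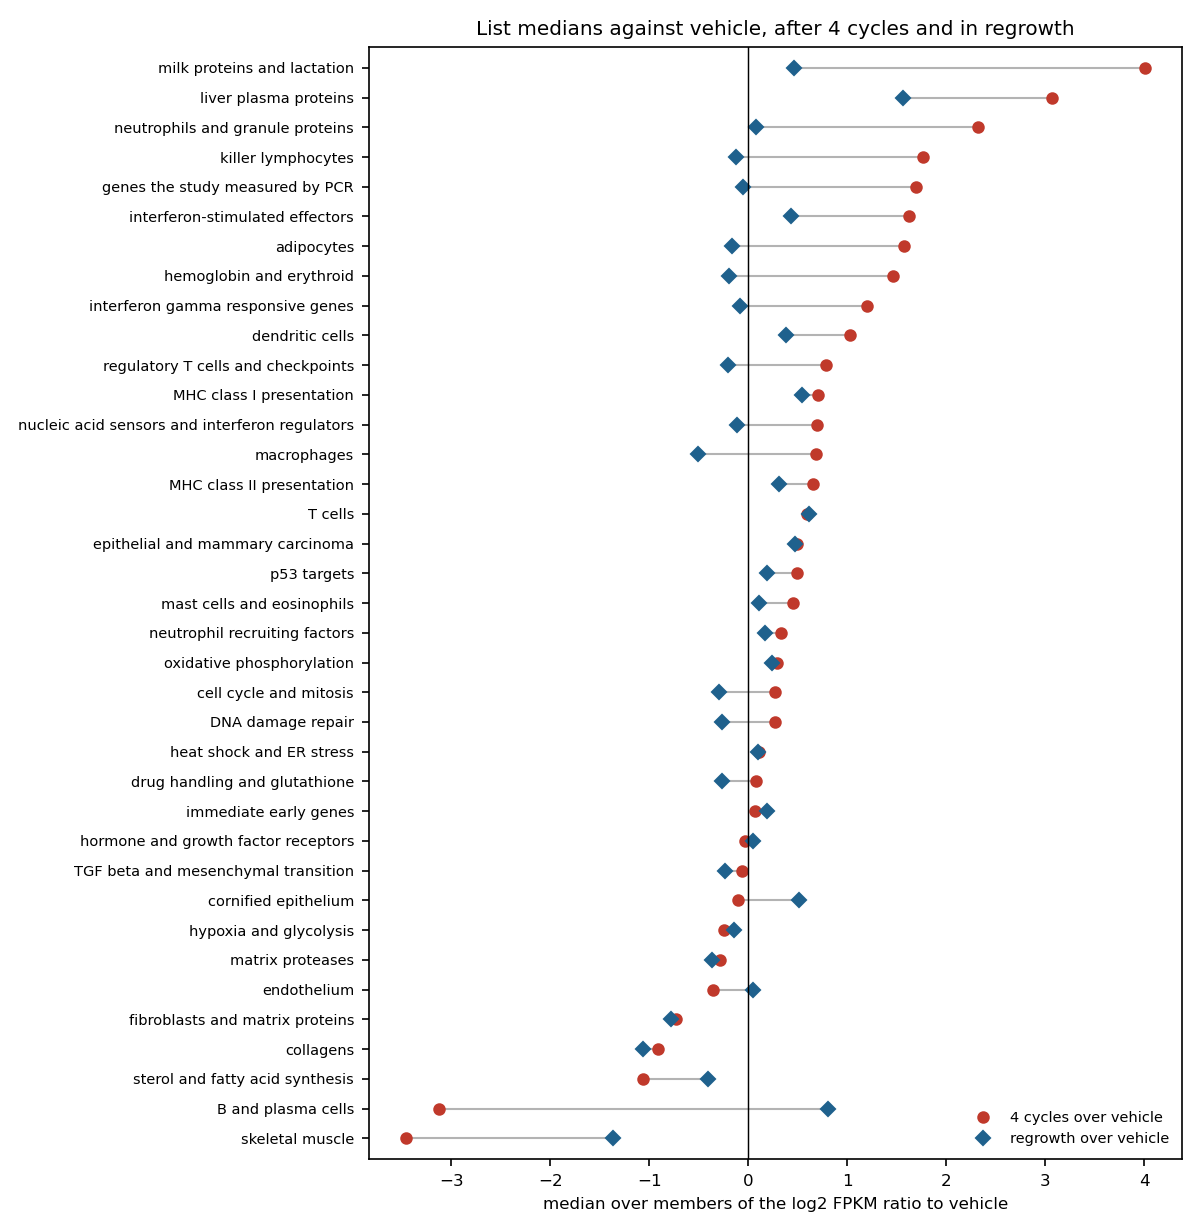
Median log2 ratio to vehicle over the compared members of each list, after 4 cycles (red circles) and in regrowth (blue diamonds), which share the vehicle group, with a line at vehicle level. The ISG effector median stands at 1.62 and 0.44, the macrophage median at 0.68 and -0.51, and the collagen median at -0.91 and -1.06.

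The genes of largest ratio came in part from the lists above. Among genes whose higher FPKM was 10 or more, the 12 of largest ratio toward lower levels were Ngp, Camp, Mup3, Ltf, Gzmf, Gzmg, Gm2083, Oasl1, Krt17, S100a8, Wisp2 and Gzmd, from 37.9-fold to 5.32-fold. Wisp2, a secreted protein of the connective tissue growth factor family, had 4.34 FPKM in vehicle, 22.8 after 4 cycles and 4.26 in regrowth. Gm2083 lies between Mup1 and Mup20 on chromosome 4 in the positions of the table. The 12 toward higher levels were Mir7067, Aldoc, Snord42a, Msmo1, Igfbp3, Fdps, Insig1, Gpihbp1, Il23a, Msmp, Mir703 and Crabp1, from 2.26 to 3.23-fold. Igfbp3, a binding protein of insulin-like growth factors, stood at 55.0 FPKM in vehicle, 31.9 after 4 cycles, 30.1 after 7 cycles and 77.0 in regrowth. Msmo1, a methylsterol oxidase of the sterol pathway, had 6.45 and 16.3 FPKM, and the glycolytic aldolase Aldoc 3.93 and 11.0. Il23a, a cytokine subunit that supports Th17 cells, had 6.00 and 14.0 FPKM. Crabp1, a retinoic acid binding protein, had 23.2 FPKM in vehicle, 8.39 after 4 cycles and 19.0 in regrowth.

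Between FPKM 1 and 10 the 12 toward lower levels were Mup1, Mup7, Mpo, Stfa3, H2-Bl, Mup9, Cd177, Chil3, Reg3g, Ctsg, Elane and Mup17, and 11 of the 12 toward higher levels were Ms4a1, Pax5, Faim3, Pou2af1, Igj, Cd79a, Cd79b, Pgam2, Tnnc2, Mzb1 and Mir99a. Of the former, 6 are known in neutrophils or their precursors (Mpo, Stfa3, Cd177, Chil3, Ctsg and Elane), and 8 of the latter are B cell genes. Each gene named here was under an FPKM of 1 in its lower group and was picked by its ratio. No reading is therefore drawn from these counts. Faim3, the receptor for IgM, had 0.0102 and 1.37 FPKM. By absolute FPKM, the largest differences toward lower levels were those of Apoe, Mir7678, Mir5107, Lyz2, Ftl1, LOC547349, Psap, Ctsd, H2-l and Ctss. Those toward higher levels were Mir5121, Rpl41, Rps12, Tpt1, Rps15, Gm15772, Rps18, Rps14, Rps3a1 and Rps27a, of which 7 encode ribosomal proteins. Rpl41, a small protein of the large subunit, had 1184 FPKM in vehicle, 1440.2 after 4 cycles, 2209 after 7 cycles and 2405 in regrowth. Entries of microRNAs and small nucleolar RNAs lie inside longer host transcripts, and reads of the host and of the small RNA cannot be told apart in polyadenylated libraries, so their values are uncertain. Such entries made up 29 of the 130 higher and 40 of the 547 lower genes.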

How the data were processed

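Strand-specific libraries were made from polyadenylated RNA of pooled tumors. Processing notes of the submitters list edgeR, featureCounts and TopHat2, and mm9 as build. Tool versions and the annotation were not given in the sources used here. For each gene and group the authors deposited a single FPKM value, made over the pools of that group. Its 12 columns of the authors' own comparisons with vehicle (ratio, fold change and adjusted P) were not used. The vehicle column is repeated 3 more times. The group values hold no read counts and depth per library was not used, so no counting interval is given. Count models need reads per library, so none was fitted between regrowth and 4 cycles.

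Ratios are FPKM in regrowth over FPKM after 4 cycles with no pseudocount. A gene was compared if it reached an FPKM of 1 in either group and was above 0 in both, and counted at a ratio of 2. Exact zeros got no ratio, since genes such as Hmgcs1 are listed at 0 in all groups and a 0 can be a failed estimate. List medians are over the members compared, in 37 lists. Named genes are the 12 of largest ratio in each direction at FPKM of at least 10 and again at 1 to 10, the 10 of largest FPKM difference in each direction, up to 4 members of each list farthest from level with any member its description turns on, genes listed at 0 in 1 group, and cell type markers. The lists, the members and the limits were chosen with earlier results of these data known. File symbols are in capitals and were respelled from reference tables, 23251 by symbol and 827 by synonym. Gene positions are the table's own in mm9, and promoters are from RefSeq in GRCm38.p6. Groups came from the sample labels, and the 5 pools of both groups entered only through the group values. Alternatives were other pseudocounts, FPKM minima, fold limits and scalings. A few genes covered by the rule for named genes are not reported here. The counting was tested on simulated data. Python 3.11.15, numpy 2.4.6, pandas 2.3.3 and matplotlib 3.10.9 were used.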

Additional observations from a re-analysis of the deposited data

How the results depend on the processing

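Every list median past the limit kept its direction under each alternative run, and the median moved by over 1.5-fold in 13 of 255 list values. The scalings shifted all ratios by 0.0044 and 0.022 (log2) and moved none by over 1.5-fold. Pseudocounts and these scalings cannot reverse a ratio past the limit, so only the other FPKM minima could have reversed a list median. Named genes were run only with the pseudocounts and scalings, so their direction was not tested. The counts of genes higher and lower in regrowth, 130 and 547, became 51 and 264 with 1 added to both FPKM values, 43 and 251 with an FPKM minimum of 5, 797 and 1678 with no minimum (32.2% of the calls higher, against 19.2%), 563 and 1345 at a fold limit of 1.5 (29.5% higher), 21 and 91 at a fold limit of 4, and 61 and 344 with the minimum required in both groups. The last alternative and the one without small RNA entries were chosen after seeing the data.

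The B and plasma cell median of 4.58 became 3.37 with 0.1 added and 1.04 with 1 added, 3.72 with no minimum, and 0.034 with a minimum of 5 or in both groups, which leave 2 genes (Xbp1 and Sdc1). The neutrophil median became -1.71 with 1 added and -1.40 with the minimum in both groups, the skeletal muscle median 1.00 and 1.01, and the adipocyte median -1.07 with 1 added. A minimum of 5 left 1 dendritic cell gene at -1.15 and 1 milk gene at -3.68, and no minimum gave the cornified list -0.28. A pseudocount moves a ratio toward 1 by construction. With 1 added, 56 of 223 named genes moved by over 1.5-fold, all toward 0, and with 0.1 added 21 did.

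No paired analysis was possible because the table holds group values only, and leaving out a pool was not possible for the same reason. The differences have no replicate check, and how much the pools of a group vary is unknown here.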

Other observations

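Gene groups outside the lists above were put together after the values had been seen, and are given as values only. Ribosomal protein genes were on the higher side in regrowth. Of 81 compared entries 79 had a ratio over 1, with a median log2 ratio of 0.47, and 1 passed 2-fold, Rpl22l1, a paralog of Rpl22, at 97.1 FPKM after 4 cycles and 197 in regrowth. Against vehicle the median was 0.18 after 4 cycles, 0.56 after 7 cycles and 0.63 in regrowth, and 7 cycles and regrowth share a mouse age. Rps12 stood at 1147, 1161, 1327, 2084 and 2266 FPKM in vehicle, after 2, 4 and 7 cycles and in regrowth. Processed pseudogenes of these genes are numerous and may share reads.

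Complement genes were lower in regrowth, 12 of 18 by 2-fold or more, with a median log2 ratio of -1.15 and none higher. The alternative pathway factor Cfb had 10.1 FPKM in vehicle, 34.7 after 4 cycles and 8.92 in regrowth, the central component C3 19.0, 37.6 and 15.3, and C4b 6.99, 28.9 and 8.01. Several members of this group are also in the macrophage or adipocyte lists. Lysosomal genes were lower in 29 of 30 cases, 7 of them by 2-fold or more (median -0.62). Among them were the cathepsins Ctsd (386 and 186 FPKM) and Ctsb (169 and 77.0 FPKM) and the cholesterol transporter Npc1 (3.51 and 1.68 FPKM). Against vehicle the lysosomal median was 0.43 after 4 cycles, -0.04 after 7 cycles and -0.14 in regrowth, thus nearly as low after 7 cycles. The complement median was 0.86, 0.35 and -0.28 in the same order.

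Genes of lymphoid follicles and of high endothelial venules were on the higher side, as the B cell genes were. Cxcl13, the chemokine that draws B cells into follicles, had 0.430 FPKM in vehicle, 0.454 after 4 cycles, 0.356 after 7 cycles and 1.85 in regrowth. Ltb (lymphotoxin beta) had 3.80, 5.75, 4.94 and 9.36 FPKM. The complement receptor Cr2 and the IgE receptor Fcer2a of B cells had 0.717 and 0.858 FPKM in regrowth and were listed at 0 and 0.00646 after 4 cycles. All 10 of 10 members above 0 in both groups had a ratio over 1, but 4 reached an FPKM of 1 in the higher group. The mucin Glycam1, a ligand of L-selectin in lymph node vessels that is also made in mammary gland, was listed at 0 only after 4 cycles. The mammary fat pad holds a lymph node, and its part in these values was not tested.

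Major urinary protein genes stood apart in the 4 cycle group. All 8 compared were lower in regrowth (median log2 ratio -3.82), beside a background of 4.68%, but 2 reached the minimum in both groups (median -2.40). The others were compared only through their level after 4 cycles, so no reading is drawn from the count or the median. Mup3 was at 13.2 FPKM after 4 cycles against 0.725, 0.661, 0.427 and 0.986 FPKM in vehicle, after 2 and 7 cycles and in regrowth. These paralogs are near-identical and share reads. A few single genes with higher levels in regrowth had their lowest or near-lowest level on treatment. Ibsp (bone sialoprotein) had 10.4, 2.04, 1.83, 2.68 and 7.48 FPKM in vehicle, after 2, 4 and 7 cycles and in regrowth, Pthlh (parathyroid hormone-related protein) 6.92, 3.06, 2.57, 2.48 and 5.75, and Cthrc1, a secreted matrix protein, 9.48, 2.63, 2.16, 2.60 and 5.39.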
